A study of Homo sapiens with 6 samples.

Results

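The cyclin-dependent kinase (CDK) inhibitors were examined in the triple-negative human breast cancer line MDA-MB-231 after knockdown of PHF20L1 by small interfering RNA (siRNA). PHF20L1 reads methylated lysines on chromatin through its Tudor domains. The genes were chosen by symbol as the CIP/KIP inhibitors CDKN1A, CDKN1B and CDKN1C, the INK4 inhibitors CDKN2A, CDKN2B, CDKN2C and CDKN2D, and CDKN3. Of these 8 symbols, 7 had a row among the 17452 genes listed in every file, and CDKN2B was not analysed here. Polyadenylated RNA was sequenced from 3 libraries of cells given siRNA against PHF20L1 (siPHF20L1) and 3 libraries of cells given a control siRNA (siControl). All cells grew in L-15 medium with serum, and lipid reagents carried the siRNA, which is not described by sequence or time of harvest in the sources used here. Separate cultures behind the replicates are not stated, so p-values speak only for the variation among these libraries, which could be technical.

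As background, CDKs drive the cell cycle when bound to cyclins, and the inhibitors hold them back. CIP/KIP proteins bind whole cyclin-CDK complexes and act mainly on CDK2, while INK4 proteins are built of ankyrin repeats, bind CDK4 and CDK6 and keep cyclin D away from them. CDKN3 encodes a phosphatase (KAP) that removes the activating phosphate of CDK2. MDA-MB-231 cells are known to have lost the chromosome region that holds CDKN2A and CDKN2B.

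Values are FPKM (fragments scaled to transcript length and library depth) as the authors deposited them, so that levels are per length. The steps of the lowest values put the worth of 1 fragment per kilobase at 0.0571 to 0.0584 FPKM, similar in all 6 libraries, so that CDKN1A rested on about 680 to 1879 fragments per library. PHF20L1 itself (Entrez 51105) stood at 2.67, 2.31 and 2.74 FPKM in the siPHF20L1 libraries and at 15.75, 12.48 and 12.73 FPKM in the siControl libraries, and every library followed its label. Of the markers of the line, VIM, CD44, ZEB1, AXL and MSN lay between 29.92 and 1644.01 FPKM, while the oestrogen receptor gene ESR1 was listed at 0 in all 6 libraries and PGR at no more than 0.05 FPKM. Of the other genes listed as low or absent in the line, CDH1 lay between 0.31 and 0.45 FPKM, but EPCAM lay between 2.02 and 5.13 FPKM and ERBB2 between 25.81 and 31.52 FPKM. The summed level of those 5 line markers was 1818 to 1857 FPKM in siPHF20L1 and 2689 to 2722 FPKM in siControl libraries. Markers of leukocytes, fibroblasts and endothelium together gave at most 1.43, 7.48 and 0.5 FPKM per library. The libraries numbered 1 of both groups stood apart from those numbered 2 and 3, and differences within these sets are given where they bear on a result.

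Most of the inhibitor genes were lower after the knockdown. Of the 6 members that passed the filter on low values, FPKM of at least 1 in at least 3 libraries, 5 fell, which were CDKN1A, CDKN1B, CDKN1C, CDKN2D and CDKN3, and none rose (limma, adjusted p under 0.05). CDKN2C did not pass the threshold, and CDKN2A was too low to be tested. Among all 11560 genes tested, 24.7% were called lower, 34.0% higher and 58.6% in either direction. That balance turned over with the scaling, since 57.9% of the called genes were higher here, against 48.4% after median-ratio scaling and 49.2% after quantile normalization. The median difference of the 6 members on the log2(FPKM + 1) scale was -0.39, against 0.05 over all genes tested. The median over all genes became -0.02 after median-ratio scaling and -0.01 after quantile normalization. The differences of all 6 members moved down as well, with CDKN3 going from -0.39 to -0.47 and -0.43. The -0.39 of the members is thus not to be set against the medians after these scalings. The same 5 members had groups that did not overlap, with every siPHF20L1 library below every siControl library, while among all genes tested 63.7% had groups that did not overlap in either direction, 3126 of the 11560 lower. In a bulk sample, fewer cells that express a gene and less RNA per cell cannot be told apart.

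**Figure D1:**
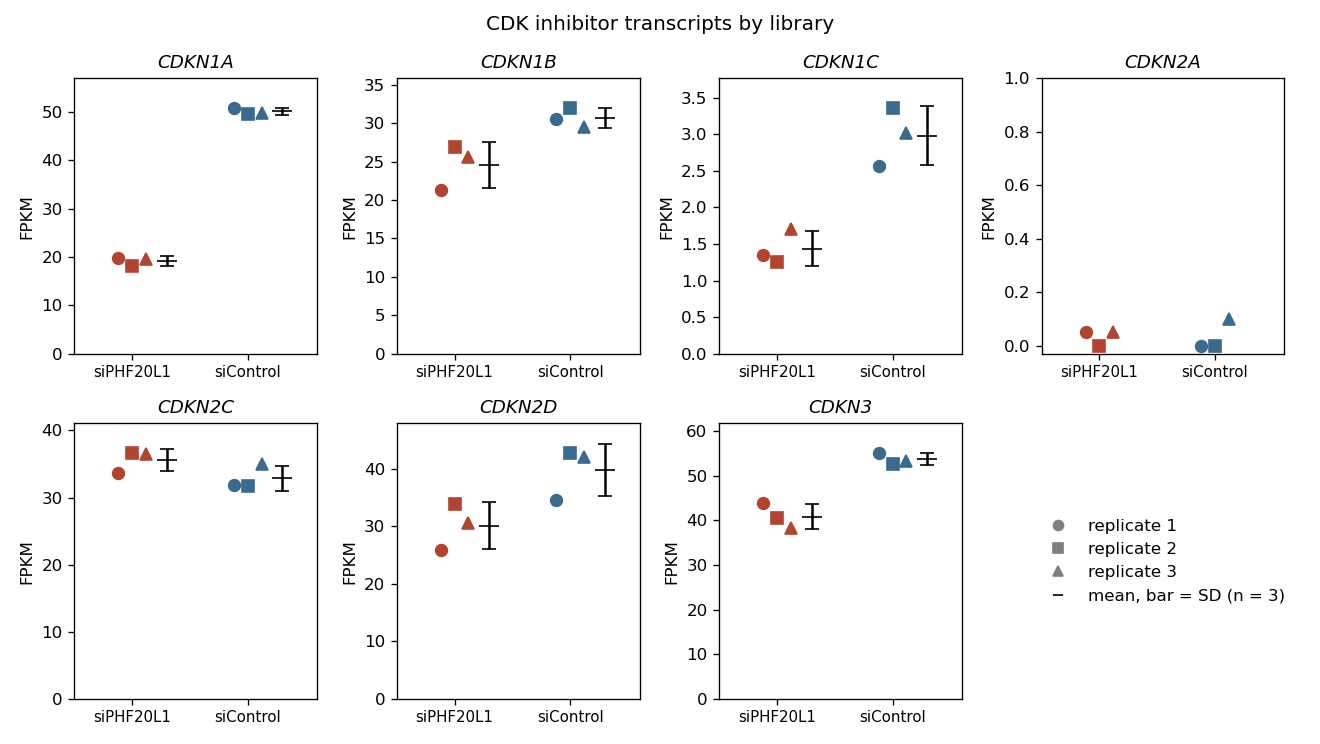
FPKM of the 7 measured inhibitor genes (vertical axes, linear) in the 3 siPHF20L1 libraries, left, and the 3 siControl libraries, right, with symbols for the replicate number and bars for mean and SD. CDKN1A stood at 18.05 to 19.87 FPKM in siPHF20L1 and 49.68 to 50.84 FPKM in siControl libraries, the groups of CDKN2C overlapped, and CDKN2A, drawn without mean, lay at or under 0.1 FPKM.

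The proximal promoters of 4 of the 5 genes that fell are shown because these genes moved in the same direction, and the sequences let their make-up be compared. For CDKN1C, the other gene that fell, the reference used here held no promoter window. The sequences shown are the RefSeq windows of 300 bases, 250 before and 50 after the start site, in GRCh38.p14, a later build than the GRCh37 of the deposited values. The window of CDKN1A is chr6:36678464-36678763 (plus strand), that of CDKN1B chr12:12717118-12717417 (plus strand), that of CDKN2D chr19:10568930-10569229 (minus strand) and that of CDKN3 chr14:54396757-54397056 (plus strand). Capitals mark the GC box GGGCGG, the CCAAT box CCAAT and the cell cycle homology region (CHR) TTTGAA, each searched on both strands. No base lay in more than 1 kind of motif, and GC boxes that overlap were each counted.
CDKN1A: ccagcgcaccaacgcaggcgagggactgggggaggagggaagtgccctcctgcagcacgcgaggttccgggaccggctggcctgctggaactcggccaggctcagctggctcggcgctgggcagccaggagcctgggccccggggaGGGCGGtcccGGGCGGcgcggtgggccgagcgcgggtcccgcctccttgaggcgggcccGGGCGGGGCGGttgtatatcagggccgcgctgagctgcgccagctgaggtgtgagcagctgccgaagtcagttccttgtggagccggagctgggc
CDKN1B: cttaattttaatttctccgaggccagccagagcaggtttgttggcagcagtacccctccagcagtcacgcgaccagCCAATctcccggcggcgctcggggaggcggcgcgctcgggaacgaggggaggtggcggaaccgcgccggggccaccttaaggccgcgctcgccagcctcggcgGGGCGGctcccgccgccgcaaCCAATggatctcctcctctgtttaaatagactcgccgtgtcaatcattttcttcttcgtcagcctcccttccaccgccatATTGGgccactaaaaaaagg
CDKN2D: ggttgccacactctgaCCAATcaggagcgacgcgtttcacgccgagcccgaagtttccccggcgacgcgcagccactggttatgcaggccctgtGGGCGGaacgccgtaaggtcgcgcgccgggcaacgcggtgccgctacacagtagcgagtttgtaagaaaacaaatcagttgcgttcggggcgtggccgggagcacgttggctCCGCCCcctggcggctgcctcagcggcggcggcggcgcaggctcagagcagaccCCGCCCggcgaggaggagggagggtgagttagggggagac
CDKN3: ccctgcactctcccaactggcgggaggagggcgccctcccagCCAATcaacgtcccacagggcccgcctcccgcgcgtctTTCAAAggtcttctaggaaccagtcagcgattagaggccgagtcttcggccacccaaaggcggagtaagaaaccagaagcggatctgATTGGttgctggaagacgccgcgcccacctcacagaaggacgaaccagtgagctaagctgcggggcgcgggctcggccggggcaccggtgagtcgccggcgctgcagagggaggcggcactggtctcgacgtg

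CDKN1A held 4 GC boxes, the last pair of them overlapping and placed at -45 and -40 relative to the start site, and neither of the other motifs. CDKN1B held 1 GC box and 3 CCAAT boxes, and CDKN2D 3 GC boxes and 1 CCAAT box. CDKN3 differed in having no GC box, with 2 CCAAT boxes and 1 CHR match on the minus strand, placed at -170 relative to the start site. All 4 windows were rich in the dinucleotide CG, with 29 in CDKN1A, 29 in CDKN1B, 36 in CDKN2D and 28 in CDKN3, against a median of 14 over all 35116 windows. This was not particular to the genes that fell, since the windows of CDKN2A held 28 and 26 CG and that of CDKN2B held 25. The GC box occurred in 45.0% of all windows, the CCAAT box in 34.6% and the CHR letters in 15.2%. CDKN2C, which did not pass the threshold, has 3 RefSeq start windows, of which 1 held 6 GC boxes and 37 CG, 1 held a GC box, a CCAAT box and 11 CG, and 1 held none of the motifs and 8 CG. A motif match is a description of these letters and not a measured binding site.

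CDKN1A (Entrez 1026) showed the largest fall of the family. It encodes p21, which inhibits cyclin-CDK2 complexes and also binds the replication clamp PCNA. It stood at 19.87, 18.05 and 19.58 FPKM in siPHF20L1 libraries and at 50.84, 49.68 and 49.79 FPKM in siControl libraries. The libraries of a group lay within a narrow band, and a gap of 29.8 FPKM separated the groups. The mean was 19.2 ± 0.978 FPKM in siPHF20L1 and 50.1 ± 0.640 FPKM in siControl libraries (SD, n = 3 each), a 2.61-fold lower level. On the log2 scale this was -1.34 (SE 0.06, limma, adjusted p = 8.75e-07), with -1.31 for the number 1 and -1.36 for the numbers 2 and 3 taken alone. Counted from the lowest difference, CDKN1A ranked 77 of the 11560 genes tested, and 1.89% of all genes tested were called lower with a log2 difference of -1 or less. By mean level it ranked 4225 of the 17452 listed genes in siPHF20L1 and 1526 in siControl libraries.

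CDKN1B (Entrez 1027) encodes p27, which restrains CDK2 in resting cells and is degraded through the ubiquitin ligase SCF with its SKP2 and CKS1B subunits. Its level was 21.25, 26.96 and 25.58 FPKM in siPHF20L1 libraries, against 30.5, 31.99 and 29.48 FPKM in siControl libraries. The groups did not overlap, with a gap of 2.52 FPKM, and the lowest value was that of siPHF20L1 replicate 1. On average CDKN1B was at 24.6 ± 2.98 FPKM in siPHF20L1 and 30.7 ± 1.26 FPKM in siControl libraries (SD, n = 3 each), with a log2 difference of -0.31 (SE 0.09, limma, adjusted p = 0.0145). Taken alone, the number 1 gave -0.50 and the numbers 2 and 3 gave -0.22. Without siControl replicate 2 the call was lost (log2 difference -0.28, limma, adjusted p = 0.0571).

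CDKN1C (Entrez 1028), the imprinted gene of p57, an inhibitor known for its part in development, was weakly expressed. It was listed at 1.35, 1.25 and 1.71 FPKM in siPHF20L1 libraries and at 2.56, 3.36 and 3.02 FPKM in siControl libraries. All siPHF20L1 values lay below all siControl values. Mean levels were 1.44 ± 0.242 FPKM in siPHF20L1 and 2.98 ± 0.401 FPKM in siControl libraries (SD, n = 3 each), a 2.07-fold lower level. The log2 difference of -0.71 (SE 0.11, limma, adjusted p = 0.000523) understates the change of a gene this low, and it was -1.01 with 0.1 in place of 1 added to the FPKM. The pair numbered 1 gave -0.60 and the other two pairs -0.76. At the estimated depth these levels rest on about 40 to 105 fragments per library, for which counting alone gives a relative error of 9.75% to 15.8%.

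The CIP/KIP class as a sum stood at 45.2 ± 2.38 FPKM in siPHF20L1 and 83.7 ± 1.38 FPKM in siControl libraries (SD, n = 3 each). The order of the first pair within the class turned over. The FPKM of CDKN1A was 0.935, 0.670 and 0.765 times that of CDKN1B in siPHF20L1 libraries, against 1.67, 1.55 and 1.69 times in siControl libraries. Every siPHF20L1 library thus had more CDKN1B than CDKN1A per length of transcript, and every siControl library had more CDKN1A. CDK2, the kinase that CIP/KIP proteins chiefly restrain, was itself at 32.0 ± 0.891 FPKM in siPHF20L1 and 45.9 ± 2.37 FPKM in siControl libraries. The class sum per unit of CDK2 was 1.29, 1.47 and 1.49 in siPHF20L1 and 1.74, 1.96 and 1.79 in siControl libraries. These are ratios of RNA levels and not of proteins.

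**Figure D2:**
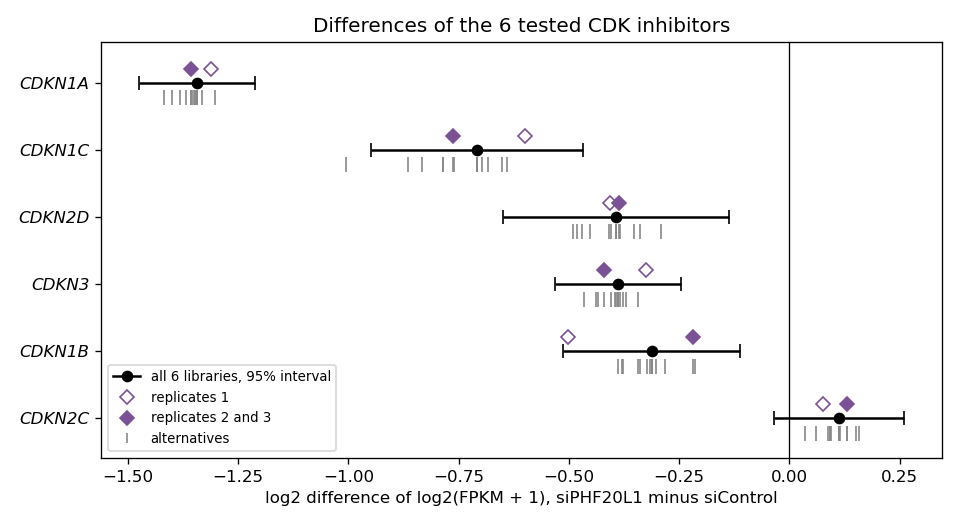
Difference of log2(FPKM + 1), siPHF20L1 minus siControl (horizontal axis), of the 6 tested inhibitors, as the limma estimate with its 95% interval (black), the difference between replicates 1 (open), that between replicates 2 and 3 (filled) and the estimates under the alternatives (ticks). CDKN1A, at -1.34, lay furthest from 0, CDKN1B had the widest gap between -0.50 and -0.22, and the interval of CDKN2C included 0.

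Among the INK4 genes, CDKN2D fell and CDKN2C did not pass the threshold. CDKN2C (Entrez 1031) encodes p18, and CDKN2D (Entrez 1032) encodes p19, which is not the ARF protein of the same size name in mouse. CDKN2D was at 25.81, 33.88 and 30.62 FPKM in siPHF20L1 libraries and at 34.55, 42.79 and 42.08 FPKM in siControl libraries. The groups were only just apart, with a gap of 0.67 FPKM, and the library numbered 1 was the lowest in both groups. CDKN2D averaged 30.1 ± 4.06 FPKM in siPHF20L1 and 39.8 ± 4.57 FPKM in siControl libraries (SD, n = 3 each), with a log2 difference of -0.39 (SE 0.11, limma, adjusted p = 0.0153). Within the number 1 it was -0.41 and within the numbers 2 and 3 it was -0.39. The call was lost without siControl replicate 2 (log2 difference -0.34, limma, adjusted p = 0.061) and without siControl replicate 3 (-0.35, adjusted p = 0.0519).

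CDKN2C stood at 33.64, 36.65 and 36.45 FPKM in siPHF20L1 libraries and at 31.85, 31.65 and 35.03 FPKM in siControl libraries. The groups overlapped through siPHF20L1 replicate 1 and siControl replicate 3. Its means were 35.6 ± 1.68 FPKM in siPHF20L1 and 32.8 ± 1.90 FPKM in siControl libraries (SD, n = 3 each). The log2 difference of 0.11 did not pass (SE 0.06, 95% interval -0.03 to 0.26, limma, adjusted p = 0.163). A replicate block in the fit made this difference pass (limma, adjusted p = 0.0232), and it also passed in the libraries numbered 2 and 3 alone (0.13, limma, adjusted p = 0.0453). Other scalings moved it both ways. It was 0.04 after median-ratio scaling (limma, adjusted p = 0.68) and 0.06 after quantile normalization (limma, adjusted p = 0.416). At equal sums it was 0.13 (limma, adjusted p = 0.102). The ratio of CDKN2D to CDKN2C in FPKM was 0.767, 0.924 and 0.840 in siPHF20L1 libraries, against 1.08, 1.35 and 1.20 in siControl libraries, and the groups did not overlap.

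CDKN2A (Entrez 1029), which encodes p16 and, in another reading frame, ARF, was listed at 0.05, 0 and 0.05 FPKM in siPHF20L1 libraries and at 0, 0 and 0.1 FPKM in siControl libraries. With the mean length of its 4 listed transcripts these values correspond to no more than 2 fragments per library, so no difference is given. Of 5 genes listed as neighbours of CDKN2A and CDKN2B on the chromosome, MTAP and KLHL9 had rows, and neither was high enough to be tested. The methylthioadenosine phosphorylase gene MTAP was at 0.61, 0.27 and 0.43 FPKM in siPHF20L1 and 0.44, 0.28 and 0.38 FPKM in siControl libraries. KLHL9, which encodes a ubiquitin ligase adaptor, was at or under 0.02 FPKM in siPHF20L1 libraries and at 0.1, 0.01 and 0.02 FPKM in siControl libraries.

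The INK4 class summed to 65.7 ± 5.65 FPKM in siPHF20L1 and 72.7 ± 5.62 FPKM in siControl libraries (SD, n = 3 each), and the sums overlapped. Within each number the sum was lower in siPHF20L1, with 59.5 against 66.4, 70.53 against 74.44 and 67.12 against 77.21 FPKM in siPHF20L1 and siControl libraries. CDK4 and CDK6, the kinases that INK4 proteins bind, both rose. CDK4 was at 86.0 ± 4.64 FPKM in siPHF20L1 and 75.5 ± 3.65 FPKM in siControl libraries (log2 difference 0.19, limma, adjusted p = 0.0297). CDK6 was at 12.09, 8.64 and 8.97 FPKM in siPHF20L1 and at 8.83, 6.01 and 6.21 FPKM in siControl libraries (log2 difference 0.45, limma, adjusted p = 0.036), with groups that overlapped. The INK4 sum per unit of CDK4 plus CDK6 was 0.626, 0.705 and 0.724 in siPHF20L1 libraries and 0.809, 0.936 and 0.899 in siControl libraries. CDK2, CDK4 and CDK6 are named here as binding partners, whatever their values.

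CDKN3 (Entrez 1033) had the highest mean of the family in both groups. Its transcripts numbered 43.78, 40.52 and 38.18 FPKM in siPHF20L1 libraries, against 55.12, 52.56 and 53.39 FPKM in siControl libraries. The groups were separated by 8.78 FPKM. Mean levels were 40.8 ± 2.81 FPKM in siPHF20L1 and 53.7 ± 1.31 FPKM in siControl libraries (SD, n = 3 each), a log2 difference of -0.39 (SE 0.06, limma, adjusted p = 0.000828). The pair numbered 1 gave -0.33 and the other two pairs -0.42. CDKN3 is known to be transcribed late in the cell cycle. Of 13 late cell cycle genes, 8 fell, 2 rose and 3 were not called, beside 24.7% lower and 34.0% higher among all genes tested. Their median log2 difference was -0.26, against 0.05 over all genes tested. CCNB1, CCNB2 and CDK1 are also in the list of cyclins and kinases given below. TOP2A, the topoisomerase of dividing cells, was at 45.2 ± 5.71 FPKM in siPHF20L1 and 101 ± 11.4 FPKM in siControl libraries (log2 difference -1.14, limma, adjusted p = 3.31e-05). The mitotic kinase gene AURKA fell by 0.49 and the cyclin gene CCNB1 fell by 0.48 on the log2 scale, while CENPF, which encodes a kinetochore protein, rose by 0.69 (limma, adjusted p = 4.77e-05, 9.59e-05 and 0.000841). The part of these genes' common timing in the fall of CDKN3 was not tested.

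**Figure D3:**
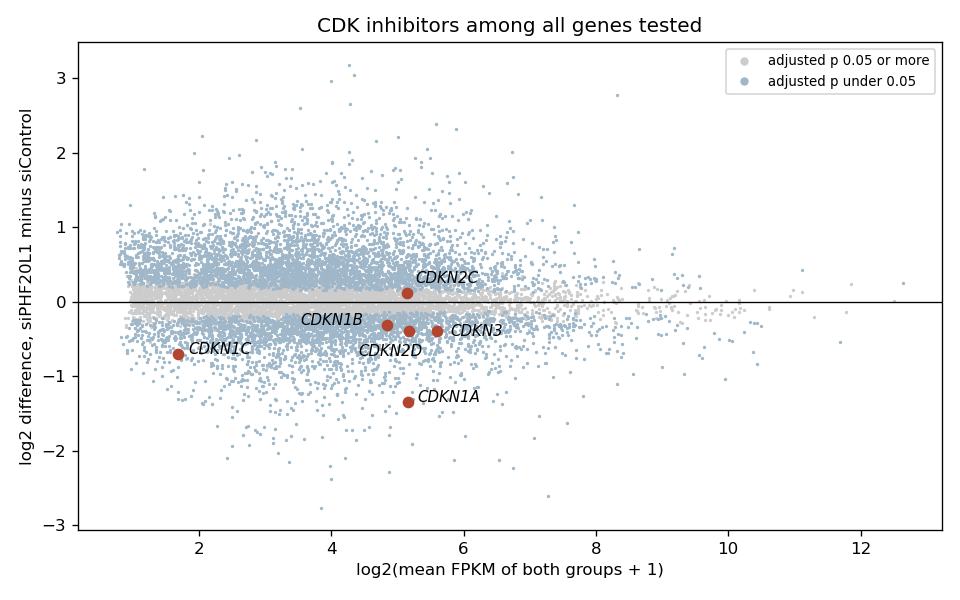
Difference of log2(FPKM + 1), siPHF20L1 minus siControl (vertical axis), against log2 of the mean FPKM of both groups plus 1 (horizontal axis) for the 11560 genes tested, coloured by whether the limma adjusted p was under 0.05, with the 6 tested inhibitors in red. CDKN1A, at -1.34, lay below most genes of its level, while CDKN1B, CDKN2D and CDKN3 lay within the bulk of the genes called lower.

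The order of levels differed between the groups, through the fall of CDKN1A and because CDKN2C and CDKN2D changed places. In siPHF20L1 libraries the order by mean FPKM was CDKN3, CDKN2C, CDKN2D, CDKN1B, CDKN1A, CDKN1C and CDKN2A, and the ranges of CDKN2C and CDKN2D and those of CDKN2D and CDKN1B overlapped. In siControl libraries it was CDKN3, CDKN1A, CDKN2D, CDKN2C, CDKN1B, CDKN1C and CDKN2A, and the ranges of CDKN2D and CDKN2C and those of CDKN2C and CDKN1B overlapped. The other neighbours in both orders did not overlap. The summed FPKM of the 7 genes was 152 ± 5.79 in siPHF20L1 and 210 ± 4.09 in siControl libraries (SD, n = 3 each). Of this sum CDKN1A made up 12.7% ± 1.09 in siPHF20L1 and 23.9% ± 0.774 in siControl libraries. CDKN2C made up 23.4% ± 0.454 in siPHF20L1 and 15.6% ± 0.771 in siControl libraries. CDKN2D made up 19.8% ± 1.94 in siPHF20L1 and 18.9% ± 1.83 in siControl libraries, and CDKN3 made up 26.96% ± 2.68 in siPHF20L1 and 25.6% ± 1.11 in siControl libraries. The ranges of both shares overlapped between the groups. Within each number both shares were higher in siPHF20L1, but barely so for CDKN3 in the number 3, with 25.09% against 25.08%. The numbers 2 and 3 do not separate as pairs. Across them, CDKN2D made up 20.12% in siPHF20L1 replicate 3, against 20.18% in siControl replicate 2.

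**Figure D4:**
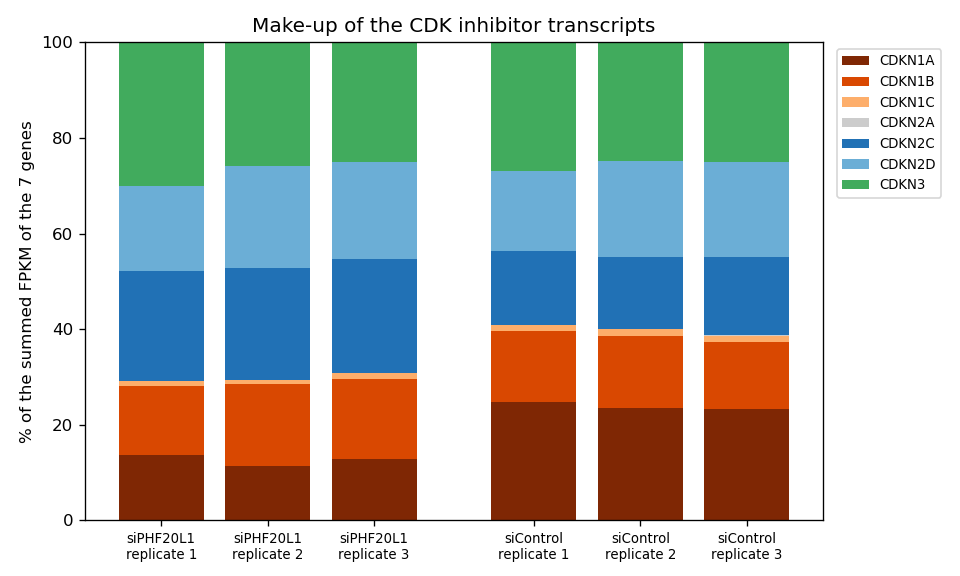
Share of each inhibitor gene in the summed FPKM of the 7 genes (vertical axis, percent) in the 3 siPHF20L1 libraries, left, and the 3 siControl libraries, right. The share of CDKN1A was 11.5% to 13.6% in siPHF20L1 and 23.4% to 24.7% in siControl libraries, and that of CDKN2C 23.1% to 24.0% in siPHF20L1 and 14.9% to 16.5% in siControl libraries.

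Of 12 tested cyclins and kinases that the inhibitors bind, 9 fell, 2 rose and 1 did not pass, beside 24.7% lower and 34.0% higher among all genes tested. Their median log2 difference was -0.31, against 0.05 over all genes. CCNE2, an E-type cyclin that activates CDK2, stood at 2.99, 2.92 and 2.55 FPKM in siPHF20L1 and 13.75, 12.02 and 11.88 FPKM in siControl libraries (log2 difference -1.83, limma, adjusted p = 1.13e-06). CCND1, the D-type cyclin that INK4 proteins displace, was at 201 ± 2.99 FPKM in siPHF20L1 and 434 ± 3.17 FPKM in siControl libraries (log2 difference -1.11, limma, adjusted p = 1.1e-06). CCNA1 and CDK2 fell by 1.13 and 0.51 on the log2 scale (limma, adjusted p = 1.09e-05 and 0.000123). Cyclins and their inhibitors CDKN1A and CDKN1B were thus lower in the same libraries, with CDK4 and CDK6 as the members of the list that rose. In place of 11, the list had 10 genes called after median-ratio scaling or quantile normalization and 8 to 10 without 1 library. The values of CDK4 and CDK6 under these alternatives are not reported here.

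Another list held genes of enzymes that add or remove phosphates on CDKs, with subunits of these enzymes. Of 8 tested, 2 fell, 1 rose and 5 were not called, beside 24.7% lower and 34.0% higher among all genes tested. The share that fell was thus near the background. The phosphatase gene CDC25C was at 7.53 ± 0.042 FPKM in siPHF20L1 and 18.1 ± 0.727 FPKM in siControl libraries, while its relative CDC25A was at 22.6 ± 1.25 FPKM in siPHF20L1 and 14.9 ± 0.139 FPKM in siControl libraries (log2 differences -1.17 and 0.57, limma, adjusted p = 1.94e-06 and 8.27e-05). CCNH, the cyclin of the CDK-activating kinase, fell by 0.36 on the log2 scale (limma, adjusted p = 0.00481). The list had 6 genes called with the replicate number as a block or in the libraries numbered 2 and 3 alone, and 5 without siPHF20L1 replicate 1.

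Downstream of the CDKs, 6 of 13 pocket protein and E2F genes fell, 4 rose and 3 did not pass, beside 24.7% lower and 34.0% higher among all genes tested. Without siControl replicate 2 the genes called in this list were 6 in place of 10. E2F1, which drives entry into DNA replication, was at 28.1, 35.0 and 34.18 FPKM in siPHF20L1 and 18.06, 20.55 and 20.6 FPKM in siControl libraries (log2 difference 0.68, limma, adjusted p = 0.000321). RBL1, the pocket protein p107, rose by 0.53, while E2F5 and E2F7, which act mostly as repressors, fell by 1.33 and 0.62 on the log2 scale (limma, adjusted p = 0.000599, 1.67e-06 and 0.000269). The retinoblastoma gene RB1 was at 24.1 ± 3.60 FPKM in siPHF20L1 and 26.0 ± 4.01 FPKM in siControl libraries and did not pass (limma, adjusted p = 0.5).

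Of 12 ubiquitin ligase parts that turn over p21, p27 and p57, 6 fell, 2 rose and 4 did not pass, with a median log2 difference of -0.16. Over all genes tested, 24.7% were lower and 34.0% higher, with a median of 0.05. CKS1B, which helps SKP2 to hold p27, was at 156 ± 5.74 FPKM in siPHF20L1 and 197 ± 13.9 FPKM in siControl libraries (log2 difference -0.33, limma, adjusted p = 0.00274). SKP1, the adaptor of SCF ligases, fell by 0.60 and CDC20, an activator of the anaphase-promoting complex, by 0.61 on the log2 scale (limma, adjusted p = 0.00109 and 0.000239). UBAC1, a subunit of the ligase that degrades p27 in the cytoplasm, rose by 0.47 (limma, adjusted p = 0.000787). SKP2 itself was at 35.3 ± 1.36 FPKM in siPHF20L1 and 31.9 ± 0.898 FPKM in siControl libraries and did not pass (limma, adjusted p = 0.0569).

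Of 17 tested factors known to raise CDK inhibitor transcription, 6 rose, 1 fell and 10 did not pass, beside 34.0% higher and 24.7% lower among all genes tested, so the share that rose was near the background. The genes called were 11 with the replicate number as a block. FOXO3, which is known to activate CDKN1B, was at 14.8, 13.69 and 14.14 FPKM in siPHF20L1 and at 8.85, 7.72 and 7.69 FPKM in siControl libraries (log2 difference 0.75, limma, adjusted p = 5.15e-05). KLF4 and KLF6, both known activators of CDKN1A, rose by 0.61 and 0.32 (limma, adjusted p = 0.000485 and 0.00244), and SMAD3, which carries the TGF-beta signal to CDKN1A and CDKN2B, fell by 0.51 (limma, adjusted p = 0.000299).

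Among factors known to repress these genes, 4 of 13 rose, 5 fell and 4 did not pass. The shares over all genes tested were 34.0% higher and 24.7% lower. TFAP4, a repressor of CDKN1A that MYC is known to induce, stood at 13.94, 11.79 and 12.31 FPKM in siPHF20L1 and at 4.5, 4.24 and 4.29 FPKM in siControl libraries (log2 difference 1.35, limma, adjusted p = 2.95e-06). MYC was at 79.6 ± 3.49 FPKM in siPHF20L1 and 61.9 ± 1.92 FPKM in siControl libraries (log2 difference 0.36, limma, adjusted p = 0.000717). KDM2B, a demethylase of Polycomb complexes, rose by 0.67, while BMI1, the Polycomb subunit known for silencing CDKN2A, and ID1 fell by 0.82 and 0.73 on the log2 scale (limma, adjusted p = 4.68e-05, 0.000223 and 0.00144). HDAC1 rose by 0.63 and CBX8 fell by 0.60 on the log2 scale (limma, adjusted p = 4.62e-05 and 0.000339), both further than MYC. The part of MYC or TFAP4 in the fall of CDKN1A was not tested. The genes MYC, HDAC1, CBX8, RB1, SKP2, CCNA2 and CCNE1 were named after their values were seen.

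**Figure D5:**
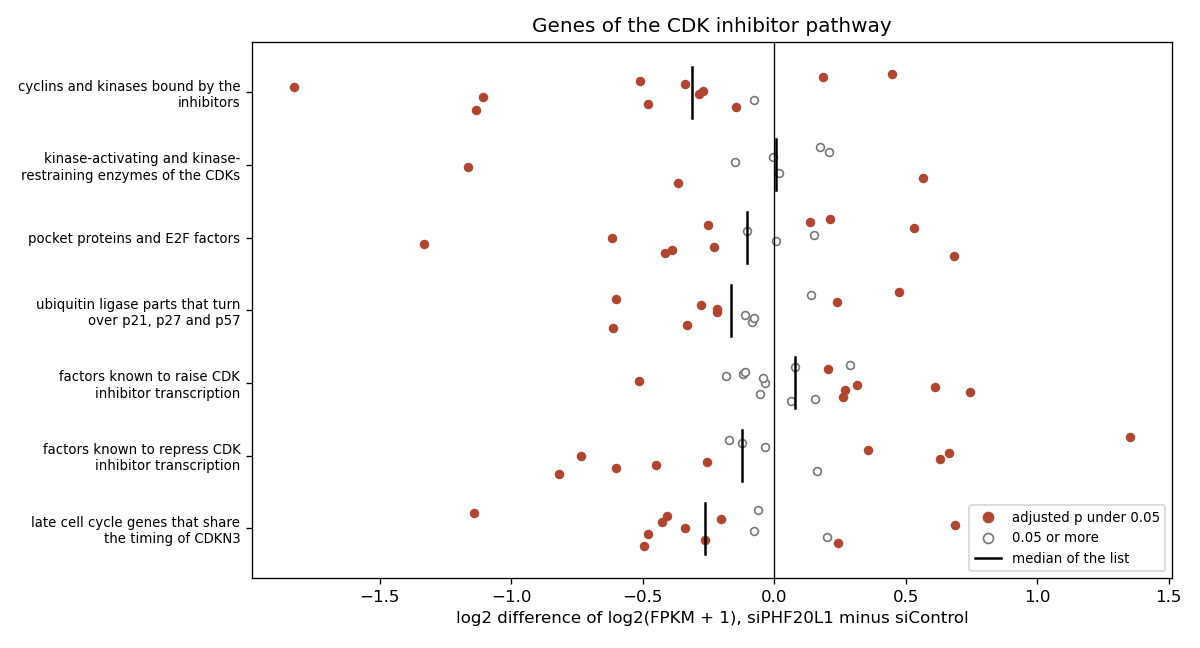
Difference of log2(FPKM + 1), siPHF20L1 minus siControl (horizontal axis), of the tested genes of 7 pathway lists (rows), filled where the limma adjusted p was under 0.05, with the median of each list as a bar. The cyclin and kinase list and the late cell cycle list had medians of -0.31 and -0.26, and that of the factors known to raise CDK inhibitor transcription was 0.08. CCNB1, CCNB2 and CDK1 were in both the cyclin and kinase list and the late cell cycle list.

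The genes with the most similar profiles were found by the Euclidean distance between log2(FPKM + 1) values over the 6 libraries, each gene centred on its own mean. For CDKN1A these were PLEKHA3, WWC2 and MBOAT1, at distances of 0.05, 0.10 and 0.11. PLEKHA3 was at 5.15 ± 0.192 FPKM in siPHF20L1 and 14.8 ± 0.085 FPKM in siControl libraries. CDKN1B was nearest to PDLIM3, FAM98C and FAM83G (0.09 to 0.10), CDKN1C to COPRS, RSRP1 and PPP2R3C (0.13 to 0.16) and CDKN3 to NDUFAF6, USP28 and ZCCHC8 (0.04 to 0.05). HDAC11 and INPPL1 were among the nearest to CDKN2C (0.05 and 0.06), and neither passed the threshold (limma). CDKN2D was nearest to MRPL34, S100A4 and SNRPA (0.05 to 0.08). With 6 libraries in 2 groups, such likeness rests mainly on the difference between the groups for the members that fell. For CDKN2D it rests also on the libraries numbered 1, and for CDKN2C, whose groups overlapped, also on the spread within the groups.

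The 3′ untranslated regions were searched for the words CAAGAT and TAAGGA, which an earlier pass over these same libraries had picked because genes that carry them tended to be lower. The longest annotated 3′ untranslated region of none of the 7 members held either word, over lengths of 140 nt in CDKN3 to 1539 nt in CDKN1A. Of all genes tested with such a region, 45.9% carried at least 1 of the words. The absence says only that these letters are not in the annotated regions.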

How the data were processed

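Poly-A RNA from 3 siPHF20L1 and 3 siControl libraries of MDA-MB-231 was made into libraries with a stranded kit, per the labels' protocols. The authors deposited 1 FPKM value per gene and library, per the file headers. GRCh37, HTSeq 0.6.0, TopHat2 2.1.1 and Bowtie 0.12.2 are named, without roles, in the submitters' processing notes. The sources used here do not give the annotation or the use of strand in counting, so values of genes that overlap on opposite strands are uncertain. Of 17452 Entrez identifiers, 17419 matched the reference gene table.

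All genes with FPKM of at least 1 in at least 3 libraries were tested with limma 3.58.1 (R 4.3.3) on log2(FPKM + 1), with an intensity trend, no block, two-sided Benjamini-Hochberg adjustment over all 11560 genes and a threshold of 0.05, after testing on simulated data. The members and lists were chosen with earlier results of these data known. Named are all members, PHF20L1, up to 4 called genes per list with the largest differences and groups that do not overlap, and the 3 nearest genes per member. Results of some genes and of 1 list are not reported here.

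Deviations from the group means correlated across genes between same-numbered libraries (0.73, 0.44 and 0.42 for the numbers 1, 2 and 3), so a fit with the number as a block is an alternative. siPHF20L1 2 with siControl 3 gave 0.49, and the correlations therefore separate only the number 1. From the estimated fragments of genes with at least 40, replicates 2 and 3 differed by a mean chi-square of 1.80 in siPHF20L1 and 2.00 in siControl, against 11.7 to 14.5 for pairs with a replicate 1. They were kept as separate samples. Depth was estimated from the steps of FPKM times length in genes with 1 transcript under 1500 nt, at lengths from GENCODE 29. A single fragment per kb was worth 0.0571 to 0.0584 FPKM. Fragment numbers are approximate and cover counting error only. Alternatives were another pseudocount, filters, scalings, no trend, the block, the libraries numbered 2 and 3, and each library left out.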

Additional observations from a re-analysis of the deposited data

How the results depend on the processing

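Over 15 alternatives, CDKN1A (log2 difference -1.42 to -1.30), CDKN3 (-0.47 to -0.34) and, in the 14 that kept it, CDKN1C (-1.01 to -0.64) kept their direction and call. CDKN1C could not be given at a minimum of FPKM 5. Leaving out 1 library at a time gave 3 to 5 members called, all lower. The differences were then -0.38 to -0.21 for CDKN1B, -0.49 to -0.29 for CDKN2D and 0.09 to 0.16 for CDKN2C, which over all alternatives ranged from 0.04 with median-ratio scaling to 0.16. CDKN1B lost its call without siControl replicate 2, and CDKN2D without siControl replicate 2 or 3. CDKN2C passed with the replicate block (0.11, limma, adjusted p = 0.0232) and in the libraries numbered 2 and 3 alone (0.13, limma, adjusted p = 0.0453). The cause of these changes was not tested. The block changed no other member's call. It gave 6 in place of 3 called genes among the enzymes that phosphorylate or dephosphorylate CDKs, as did the libraries numbered 2 and 3 alone, and 11 in place of 7 among the factors that raise CDK inhibitor transcription. Without 1 library the enzyme list had 3 to 5 genes called, the pocket protein and E2F list 6 to 10 and the raising factors 5 to 9. Over all genes, 5418 to 8792 were called. Of the called genes 57.9% were higher, against 48.4% after median-ratio scaling, 49.2% after quantile normalization and 60.3% at equal sums, and the largest shift of the median of all genes was -0.07. The list genes named by rule and PHF20L1 kept direction and call throughout. Depth limits CDKN2A, with at most 2 fragments, and CDKN1C.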
